A study of Homo sapiens with 10 samples.

Results

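The HOXA cluster was examined in 10 RNA sequencing libraries of U2932, an established human lymphoma line of the diffuse large B cell type, which arises from mature B cells. The members were the 9 HOXA genes HOXA2, HOXA3, HOXA4, HOXA5, HOXA6, HOXA7, HOXA9, HOXA10 and HOXA13, found by Ensembl identifier among the 21174 genes of the deposited count table, and all 9 had a row. They were chosen because HOXA7 had high counts in 2 libraries, Het_9 and Het_10, and had been called higher in CREBBP+/- libraries by DESeq2, so the levels of the members and their difference between the genotypes are a description here, without a test. Of the 5 CREBBP+/+ libraries (WT_1 to WT_5) and the 5 CREBBP+/- libraries (Het_6 to Het_10), each is labelled as a clone of U2932, and CREBBP encodes a histone acetyltransferase. The sources used here do not give how the CREBBP allele was altered, how the clones were derived or on which days they were grown. The CREBBP+/- columns carry numbers that no labelled clone has, and only their group is known.

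HOX genes encode homeodomain transcription factors that give cells positional identity along the body axis of the embryo. They lie in 4 clusters, HOXA to HOXD, and within a cluster the genes stand in the order in which they are used along the axis. In blood formation HOXA genes are active in stem and progenitor cells and are turned down as cells mature. Polycomb complexes keep silent HOX genes closed, and KMT2A with its partners keeps active ones open. Several HOX proteins bind DNA together with PBX and MEIS proteins, which belong to the TALE class of homeodomain factors.

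Of the 9 members, 5 reached 1 CPM (counts scaled to library size with TMM factors) in at least 1 library, namely HOXA5, HOXA6, HOXA7, HOXA10 and HOXA13, and 4 never did, namely HOXA2, HOXA3, HOXA4 and HOXA9. HOXA13 lay just inside this limit with a highest value of 1.04 CPM, and HOXA3 just outside it with 0.885 CPM. No member was at 0 in every library. HOXA7 was highest in Het_9 and Het_10, while HOXA10 was highest in Het_6 and Het_7. HOXA9, which lies between these 2 genes, had 7 counts in all.

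RefSeq starts of HOXA7, HOXA9 and HOXA10 are shown because these neighbours had the most different levels. Each is a window of 150 bases before a RefSeq start that holds no annotated exon of the same strand, with CG dinucleotides, the sites of DNA methylation, in capitals (RefSeq promoter table, GRCh38.p14, minus strand). They are chr7:27156755-27156904 for HOXA7, chr7:27165538-27165687 for HOXA9 and chr7:27174321-27174470 for the inner start of HOXA10, and the HOXA7 window begins 79 bases before its start. GENCODE v44 places the starts of these genes further out, at 27157936, 27175180 and 27180261, so each window lies inside its gene. Distances between gene starts given below use the GENCODE starts.
HOXA7: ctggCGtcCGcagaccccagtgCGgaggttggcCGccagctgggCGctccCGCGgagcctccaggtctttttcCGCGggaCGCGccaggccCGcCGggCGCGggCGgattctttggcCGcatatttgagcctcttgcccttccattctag
HOXA9: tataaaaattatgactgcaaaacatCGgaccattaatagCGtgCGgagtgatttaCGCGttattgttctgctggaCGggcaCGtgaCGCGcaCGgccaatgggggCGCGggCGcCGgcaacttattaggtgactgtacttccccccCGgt
HOXA10: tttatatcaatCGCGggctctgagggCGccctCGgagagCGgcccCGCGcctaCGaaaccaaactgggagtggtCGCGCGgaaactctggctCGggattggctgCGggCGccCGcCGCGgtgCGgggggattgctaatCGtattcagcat
These windows held 17 CG dinucleotides for HOXA7, 15 for HOXA9 and 19 for HOXA10, against a median of 7 in the 150 bases before 35114 RefSeq starts. The motif TATAAA, searched on both strands, was found in the HOXA9 and HOXA10 windows and not in that of HOXA7, and 6.71% of all windows hold it. In both windows it formed the first bases, at the end away from the start. Methylation and chromatin were not measured. Promoters were listed for 8 of the 9 members. The outer start of HOXA10 had no window free of exons, so the inner start is shown.

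The libraries had 10615977 (Het_9) to 23020694 (Het_6) counts. With all HOX genes left out, average-linkage clustering of log2 CPM placed WT_1, WT_2 and Het_8 together, WT_3, WT_4, WT_5, Het_6 and Het_7 together, and Het_9 with Het_10, the last cluster without a CREBBP+/+ library. CREBBP itself ranged from 56.8 to 80.7 CPM in libraries labelled CREBBP+/- and from 103 to 136 CPM in the others, so no library went against its label. The labels do not say whether libraries came from separate cultures, so differences between them may in part be technical. The B cell markers MS4A1 (700.1 to 1568 CPM), CD79A (371 to 661), CD79B (233 to 431), PAX5 (373 to 724), CD22 (152 to 383) and BLK (84.6 to 178) were detected in every library.

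HOXA7, a factor of the central part of the cluster (ENSG00000122592, chromosome 7, 27153716 to 27157936, GRCh38), had 11.2 CPM in Het_9 and 8.29 CPM in Het_10, from 122 and 178 counts. In the other CREBBP+/- libraries it had 1.69 CPM in Het_8 (31 counts), 0.555 in Het_6 (13 counts) and 0.0482 in Het_7 (1 count). The CREBBP+/+ libraries had 0.185 CPM in WT_1, 0.655 in WT_2, 0.226 in WT_3, 0.165 in WT_4 and 0.104 in WT_5. Het_9 and Het_10 lay far above the rest, Het_8 came next, and Het_6 and Het_7 lay within or below the CREBBP+/+ range, so the genotypes overlapped. In bulk RNA, fewer cells with HOXA7 and less HOXA7 RNA per cell cannot be told apart. The group values were 0.267 ± 0.221 and 4.36 ± 5.06 CPM in CREBBP+/+ and CREBBP+/- libraries (mean ± SD, n = 5 each), a log2 fold change of 3.98 (SE 1.15, edgeR), which fell to 1.49 without Het_9 and Het_10. Without a single library it was 3.28 to 4.61. HOXA7 was among the 34 genes that DESeq2 called (0.26% of 13071 with an adjusted p), of which 14 were higher (0.107%). That call led to the choice of the cluster, and edgeR called 0 of 11961 genes (0% called, with 596 genes, or 4.98%, at an unadjusted p under 0.05).

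An antisense RNA is annotated opposite part of HOXA7, and counts per gene do not show where along it the reads lay. In GENCODE v44, 62.5% of the exon bases of HOXA7 lie opposite exons of HOXA-AS3, a noncoding RNA of the other strand, and so do 39.3% of those of HOXA6. Smaller parts of HOXA3 (17.3%), HOXA4 (16.5%), HOXA10 (16.4%), HOXA9 (13.9%) and HOXA13 (1.70%) also lie opposite antisense RNAs. The labels name a TruSeq RNA kit, and neither they nor the count table state that reads were counted by strand, so counts of HOXA7 and of its antisense partner cannot be told apart. HOXA5, with no exon base shared with any annotated gene, is free of this limit. HOX paralogs also resemble each other within the homeobox, and the sources used here do not give the read length.

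**Figure D1:**
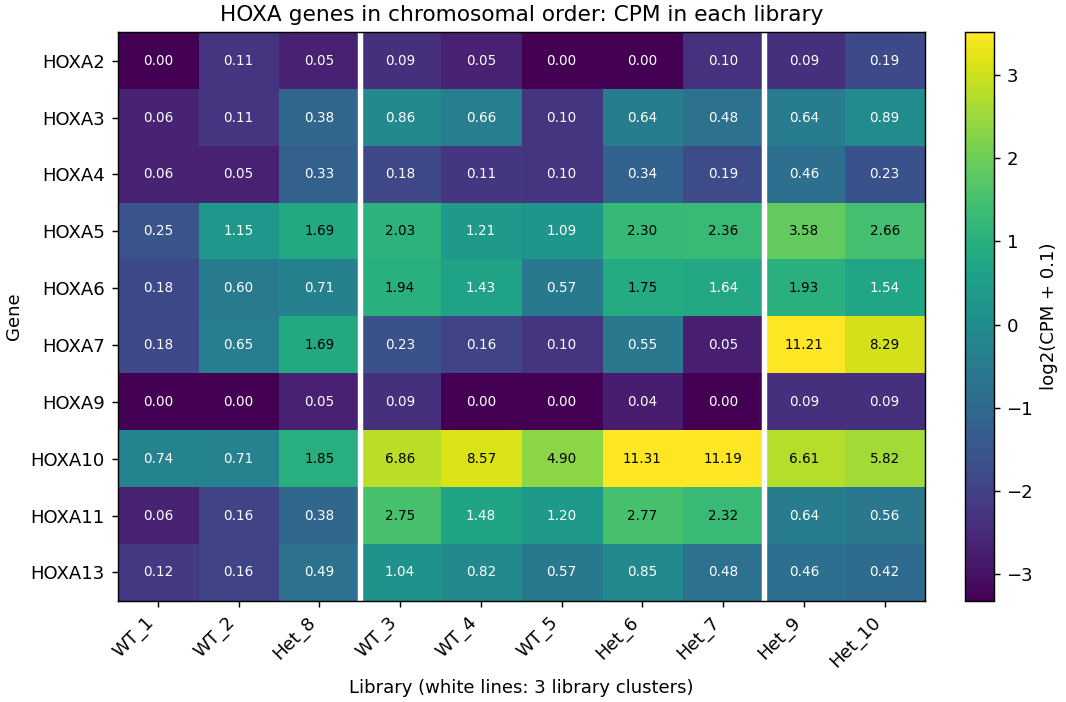
CPM of the HOXA genes (rows, in chromosomal order from HOXA2 to HOXA13) in each library (columns, grouped by library cluster), with colour giving log2(CPM + 0.1) and the printed numbers giving CPM. Along the HOXA7 row Het_9 and Het_10 hold 11.2 and 8.29 CPM and no other library exceeds 1.69, while the HOXA10 row peaks in Het_6 and Het_7. Values compare libraries within a row, not genes of different length.

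HOXA10, a factor of the 5′ part of the cluster that is known in haematopoietic progenitors and in the uterus (ENSG00000253293, chromosome 7, 27170605 to 27180261), was the member with the most counts, 1155 over all libraries. It had 11.3 CPM in Het_6 and 11.2 in Het_7, followed by 8.57 in WT_4, 6.86 in WT_3, 6.61 in Het_9, 5.82 in Het_10 and 4.90 in WT_5. Het_8 had 1.85 CPM, and WT_1 and WT_2 had 0.740 and 0.709. The low libraries were thus the 3 of 1 cluster, and the order of HOXA10 was not that of HOXA7. Each of the 5 libraries of the second cluster lay above each of those 3, as was the case for 23.9% of all 11961 genes tested. The genotypes overlapped (4.35 ± 3.56 and 7.36 ± 3.99 CPM, n = 5 each, log2 fold change 0.75, SE 0.71). Within the cluster of 5, Het_6 and Het_7 lay above the 4.90 to 8.57 CPM of WT_3, WT_4 and WT_5, and within the cluster of 3 Het_8 lay above WT_1 and WT_2.

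The balance of HOXA7 and HOXA10 counts does not depend on the scaling of libraries. HOXA7 made up 62.9% of the counts of both genes in Het_9 (122 of 194, 95% exact binomial interval 55.7 to 69.7%) and 58.7% in Het_10 (178 of 303, 53.0 to 64.3%). In Het_8 it made up 47.7% (31 of 65, 35.1 to 60.5%), and in WT_2 48.0% (12 of 25, 27.8 to 68.7%). WT_1 had 20.0% (3 of 15), with a wide interval of 4.33 to 48.1%. In WT_3, WT_4, WT_5, Het_6 and Het_7 the share was 0.429 to 4.68%, with no interval reaching above 7.86%. Het_8 and WT_2 thus had a balance nearer to Het_9 and Het_10 than to the cluster of 5, at far lower levels of both genes. These intervals cover counting error only. Both genes lie in part opposite antisense RNAs, so the balance carries the strand limit given above.

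**Figure D2:**
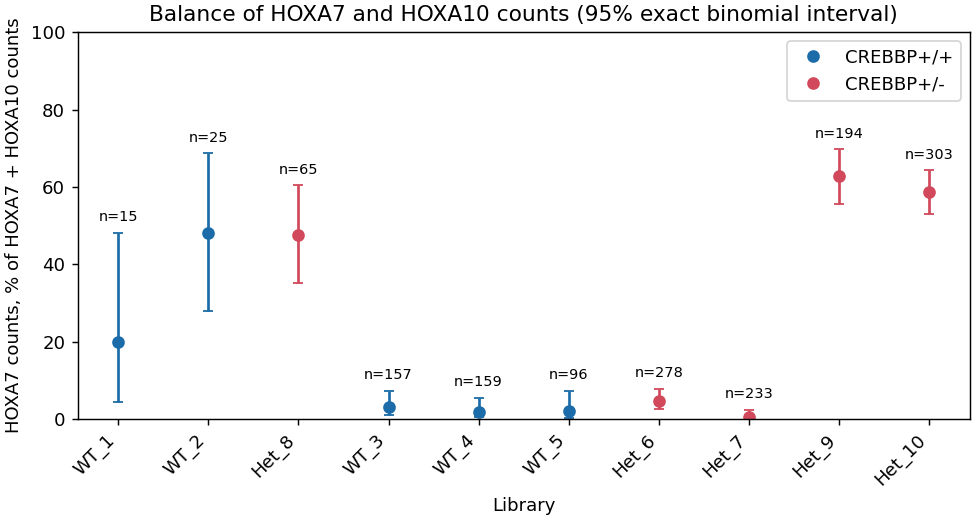
HOXA7 counts as a percentage of HOXA7 plus HOXA10 counts in each library, with points coloured by genotype, bars giving the 95% exact binomial interval and n giving the counts of both genes. The 5 libraries WT_3, WT_4, WT_5, Het_6 and Het_7 lie under 5%, and Het_9 and Het_10 lie at 62.9 and 58.7%.

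HOXA5 and HOXA6 lie next to HOXA7 on the side of HOXA2, with homeoboxes, the exon parts that encode the DNA-binding domain, at -13.1 and -9.32 kb from that of HOXA7. HOXA5 (ENSG00000106004, chromosome 7, 27141052 to 27143681), a factor known in lung and blood development, had 3.58 CPM in Het_9 and 2.66 in Het_10. The other CREBBP+/- libraries had 2.30 (Het_6), 2.36 (Het_7) and 1.69 CPM (Het_8), and the CREBBP+/+ libraries 0.247 (WT_1), 1.15 (WT_2), 2.03 (WT_3), 1.21 (WT_4) and 1.09 CPM (WT_5). Het_9 and Het_10 were thus the 2 highest, as for HOXA7, but by a small margin over Het_7, and 9.78% of all genes tested had both of these libraries above the other 8. Of the members, 3 had this order, namely HOXA7, HOXA5 and, with 1 and 2 counts in these libraries, HOXA9. HOXA7 was chosen for its high counts in these libraries, and HOXA9 did not pass the filter and is outside the 9.78%. WT_3 alone of the CREBBP+/+ libraries lay above the lowest CREBBP+/- library (1.15 ± 0.632 and 2.52 ± 0.691 CPM, n = 5 each, log2 fold change 1.12, SE 0.43).

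HOXA6 (ENSG00000106006, chromosome 7, 27145396 to 27150603) did not follow HOXA7. It had 1.93 CPM in Het_9 and 1.54 in Het_10, within the range of the cluster of 5, where WT_3 had 1.94, Het_6 1.75, Het_7 1.64, WT_4 1.43 and WT_5 0.573 CPM. WT_1, WT_2 and Het_8 had 0.185, 0.600 and 0.708 CPM. The log2 fold change between genotypes was 0.66 (SE 0.53), with overlapping groups. HOXA6 and HOXA7 lie opposite the same antisense RNA, HOXA-AS3.

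HOXA4 and HOXA3, further along on the same side, were low throughout. HOXA4 (ENSG00000197576, chromosome 7, 27128507 to 27130780) had 38 counts in all, 1 to 4 in each CREBBP+/+ and 4 to 8 in each CREBBP+/- library. Its levels were 0.0546 to 0.180 CPM and 0.193 to 0.459 CPM, and it was the 1 member in which all CREBBP+/- libraries lay above all CREBBP+/+ libraries, as did 0.42% of the 16175 genes with any count. The gap rested on WT_3 and Het_7 with 4 counts each, a difference that counting error exceeds. HOXA3 (ENSG00000105997, chromosome 7, 27106184 to 27152583) had 0.0616 CPM in WT_1, 0.109 in WT_2 and 0.104 in WT_5, and 0.381 to 0.885 CPM in the other 7 libraries. For HOXA4, 31.3% of the exon bases are also exons of a readthrough RNA of the same strand (ENSG00000273433, 33 counts), and how such reads were counted is unknown.

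HOXA2 and HOXA9 were the nearest to silence. HOXA2, a factor of hindbrain and neural crest patterning (ENSG00000105996, chromosome 7, 27100354 to 27102686), had 13 counts in all, at most 4 in a library (Het_10) and 0 in WT_1, WT_5 and Het_6. HOXA9, a driver of myeloid leukaemia when overexpressed (ENSG00000078399, chromosome 7, 27162438 to 27175180), had 2 counts in WT_3 and in Het_10, 1 in Het_6, Het_8 and Het_9, and 0 in the other 5. Pooled over all 10 libraries, the level of HOXA9 was 0.037 CPM (95% exact Poisson interval 0.0149 to 0.0763) and that of HOXA2 was 0.0688 CPM (0.0366 to 0.118). A count of 0 in the 5 libraries without HOXA9 reads allows a level of up to 0.145 to 0.185 CPM (3 counts per library). HOXA9 shares 397 of its 3033 exon bases with a readthrough gene that joins it to HOXA10 and has its own row (ENSG00000257184, 2 counts).

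HOXA13, the last gene of the cluster on the 5′ side and a factor of limb and urogenital development (ENSG00000106031, chromosome 7, 27193503 to 27200091), had 107 counts in all. It had 0.123 and 0.164 CPM in WT_1 and WT_2, 1.04 in WT_3, 0.824 in WT_4, 0.573 in WT_5, 0.854 in Het_6, 0.482 in Het_7, 0.490 in Het_8, 0.459 in Het_9 and 0.419 in Het_10. WT_1 and WT_2 were the lowest, and the group means were alike (0.544 ± 0.401 and 0.541 ± 0.177 CPM, n = 5 each).

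HOXA11, between HOXA10 and HOXA13 (ENSG00000005073, chromosome 7, 27181157 to 27185232), is not among the 9 members. It had 1.20 to 2.77 CPM in the cluster of 5, 0.559 and 0.643 in Het_10 and Het_9, and 0.0616 to 0.381 in the cluster of 3. In Het_9 and Het_10 it thus lay between the other clusters, unlike HOXA7. It did not pass the edgeR threshold between genotypes (log2 fold change 0.24, SE 0.85, adjusted p = 0.988). Of 7 listed noncoding RNAs of the cluster, 0 had a row matched by symbol, so none was analysed here. They are HOTAIRM1, HOXA-AS1, HOXA-AS2, HOXA-AS3, HOXA10-AS, HOXA11-AS and HOTTIP.

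Per kb of annotated exon, the order of genes differed between libraries. In Het_9 and Het_10 HOXA7 led with 4.65 and 3.44 CPM per kb, ahead of HOXA5 (2.08) and HOXA10 (1.78) in Het_9 and of HOXA10 (1.57) and HOXA5 (1.54) in Het_10. In Het_6 and Het_7 HOXA10 led with 3.05 and 3.02 CPM per kb, and HOXA7 had 0.230 and 0.0200. In Het_8 HOXA5 (0.982) and HOXA7 (0.700) led. As means over the 10 libraries, HOXA10 had 1.58 ± 1.05, HOXA5 1.07 ± 0.556, HOXA7 0.959 ± 1.66 and HOXA6 0.957 ± 0.503 CPM per kb (SD). The SD gives the spread over libraries and does not say whether genes differ, since all were measured in the same libraries. The order of these means was not tested. HOXA4, HOXA3 and HOXA13 followed with 0.119, 0.112 and 0.107, and HOXA2 and HOXA9 with 0.0293 and 0.0123 CPM per kb.

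**Figure D3:**
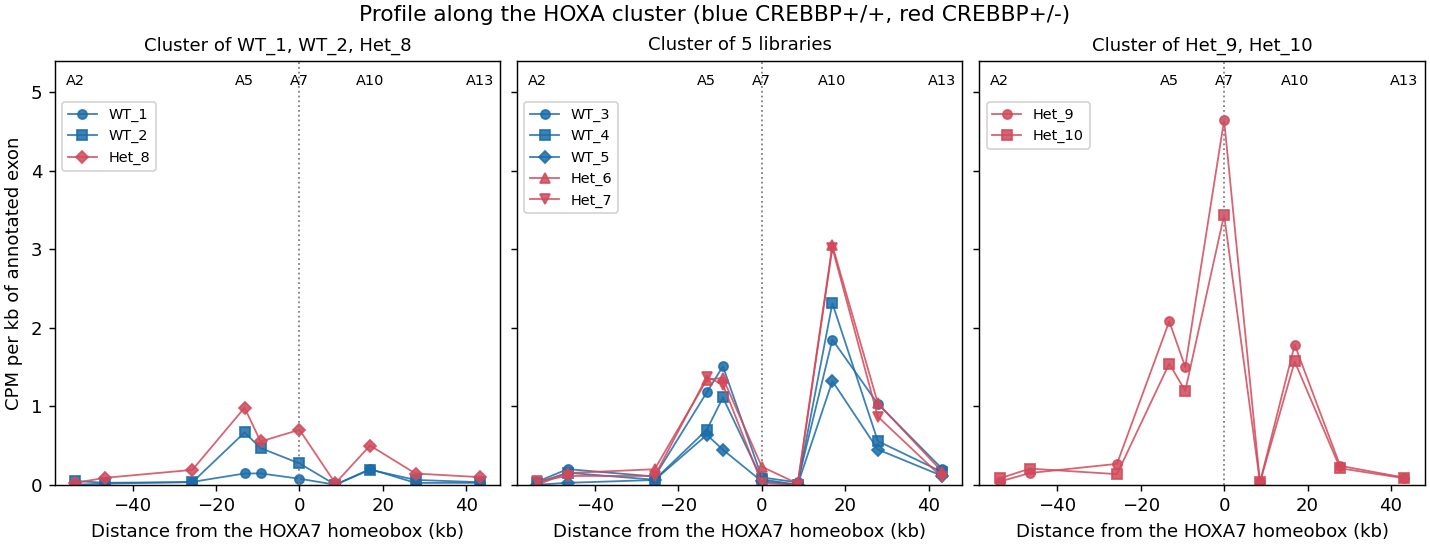
Level of each HOXA gene in CPM per kb of annotated exon (y axis) against the distance of its homeobox from that of HOXA7 in kb (x axis), 1 line per library, in 3 panels by library cluster, blue for CREBBP+/+ and red for CREBBP+/-. The cluster of 5 peaks at HOXA10, Het_9 and Het_10 peak at HOXA7 with 4.65 and 3.44, and all libraries drop to near 0 at HOXA2 and at HOXA9.

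The 9 members summed to 1.60 CPM in WT_1, 3.55 in WT_2, 13.3 in WT_3, 13.0 in WT_4 and 7.45 in WT_5. The CREBBP+/- sums were 17.8 CPM in Het_6, 16.5 in Het_7, 7.25 in Het_8, 25.1 in Het_9 and 20.1 in Het_10. The CREBBP+/- sums thus lay above every CREBBP+/+ sum except for Het_8, which lay below 3 of them. The group values were 7.79 ± 5.34 and 17.3 ± 6.53 CPM (n = 5 each). Without HOXA7 they were 7.52 ± 5.43 and 13.0 ± 4.67 CPM, and without Het_9 and Het_10 the CREBBP+/- mean was 13.8 CPM. HOXA4, HOXA5 and HOXA10, 3 of the 9 members, had their CREBBP+/- libraries above their CREBBP+/+ libraries within both clusters that hold both genotypes, as did 5.12% of all genes with a count and 6.12% of those tested.

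Genes on either side of the cluster are given for comparison. SKAP2, an adaptor of immune cells whose start lies at -163 kb from that of HOXA7, had 57.2 and 51.5 CPM in Het_9 and Het_10 and 57.7 to 78.1 CPM elsewhere. HIBADH, a mitochondrial enzyme of valine breakdown 505 kb away on the other side, had 22.6 and 19.1 CPM there and 20.6 to 30.3 elsewhere. EVX1, the homeobox gene next to HOXA13, was at 0 in every library. SNX10 (23.7 to 44.5 CPM), CBX3 (339 to 435), HNRNPA2B1 (1992 to 2462), TAX1BP1 (71.7 to 99.4) and JAZF1 (15.4 to 28.6) varied by 1.24-fold to 1.88-fold between libraries. Of 13 tested genes within 2 Mb that are not HOX genes, 0 had both Het_9 and Het_10 above the other 8 libraries, against 9.78% of all genes tested, and 3 had both below them (C7orf31, HNRNPA2B1 and SKAP2), against 8.7%. With 13 genes, a count of 0 is close to what the share over all genes gives. CREB5, a CREB family factor 1141 kb away that was singled out after its values were seen, varied most, with 13.0 to 21.8 CPM in the cluster of 5, 2.76 and 1.77 in Het_9 and Het_10, and 0 to 0.327 in WT_1, WT_2 and Het_8.

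**Figure D4:**
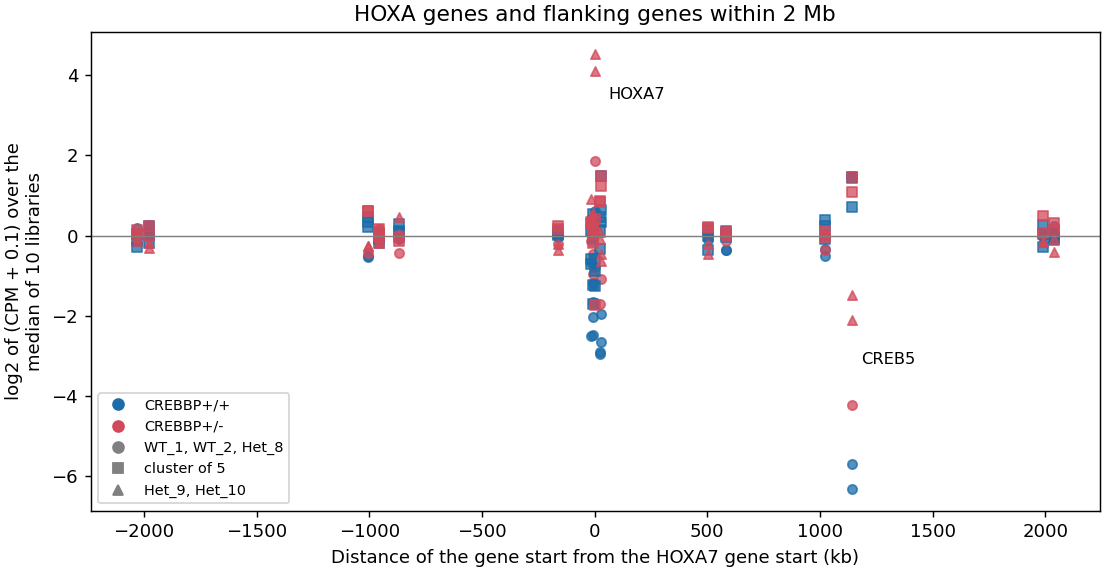
Log2 of CPM + 0.1 over the median of the 10 libraries (y axis) for tested HOXA genes and flanking genes within 2 Mb, against the distance of its start from that of HOXA7 in kb (x axis), with colour for genotype and marker shape for library cluster. The HOX genes near 0 kb and CREB5 at 1141 kb spread widely, and the other genes stay close to 0.

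The other HOX clusters held 28 genes, of which 5 reached 1 CPM in a library. HOXB7, the HOXB paralog of HOXA7, had 4.50 CPM in Het_9 and 3.21 in Het_10 (49 and 69 counts) and 0 to 0.451 CPM elsewhere. HOXB4, a factor known for the expansion of blood stem cells, had 1.65 and 0.978 CPM there (18 and 21 counts), 0.218 in Het_8, and at most 1 count in each other library. Of the HOXB genes between them on chromosome 17, HOXB5 was at 0 in every library, and HOXB6 had 3 counts in all, 1 in Het_9 and 2 in Het_10. HOXB9 had 2 counts in each of these libraries and 1 each in WT_1 and WT_4. In all, 4 of the 10 HOXB genes (HOXB4, HOXB6, HOXB7 and HOXB9) had Het_9 and Het_10 above the other 8 libraries. HOXB6 and HOXB9 had too few counts to tell their levels from those elsewhere. The same order held for 2 of 9 HOXC genes, 0 of 9 HOXD genes and 9.78% of all genes tested. That share covers no HOXB gene, since none passed the filter, and a share over untested genes was not computed. HOXB7 and HOXB4 failed the filter on low counts and have no edgeR test, and the 10 HOXB genes summed to 6.43 and 4.43 CPM in Het_9 and Het_10 and to 0 to 0.654 elsewhere.

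HOXC4, known in mature lymphocytes, had the most counts of any HOX gene (3558), with 15.2 to 21.7 CPM in CREBBP+/+ libraries. The CREBBP+/- libraries lay within that range, at 18.5 to 20.5 CPM (log2 fold change 0.08, SE 0.11, edgeR adjusted p = 0.988). HOXC6 had 0.104 to 1.04 CPM in CREBBP+/+ libraries, 0.708 in Het_8, 1.28 in Het_6, 1.59 in Het_7, 1.75 in Het_9 and 2.61 in Het_10 (log2 fold change 2.07, SE 0.61, edgeR adjusted p = 0.842). HOXC5, singled out after its values were seen, had 0.827 CPM in Het_9 and 0.512 in Het_10 (9 and 11 counts) and at most 0.218 CPM elsewhere. HOXC11 had 0.545 to 1.65 CPM over all libraries (adjusted p = 0.988). HOXC4 and HOXC6 share exon bases (17.5% of those of HOXC4), so their counts are uncertain. No HOXD gene reached 1 CPM. HOXD10, singled out after its values were seen, had 22 counts in Het_6, 12 in Het_7, 1 to 3 in Het_8, Het_9 and Het_10 and 1 in all CREBBP+/+ libraries together.

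**Figure D5:**
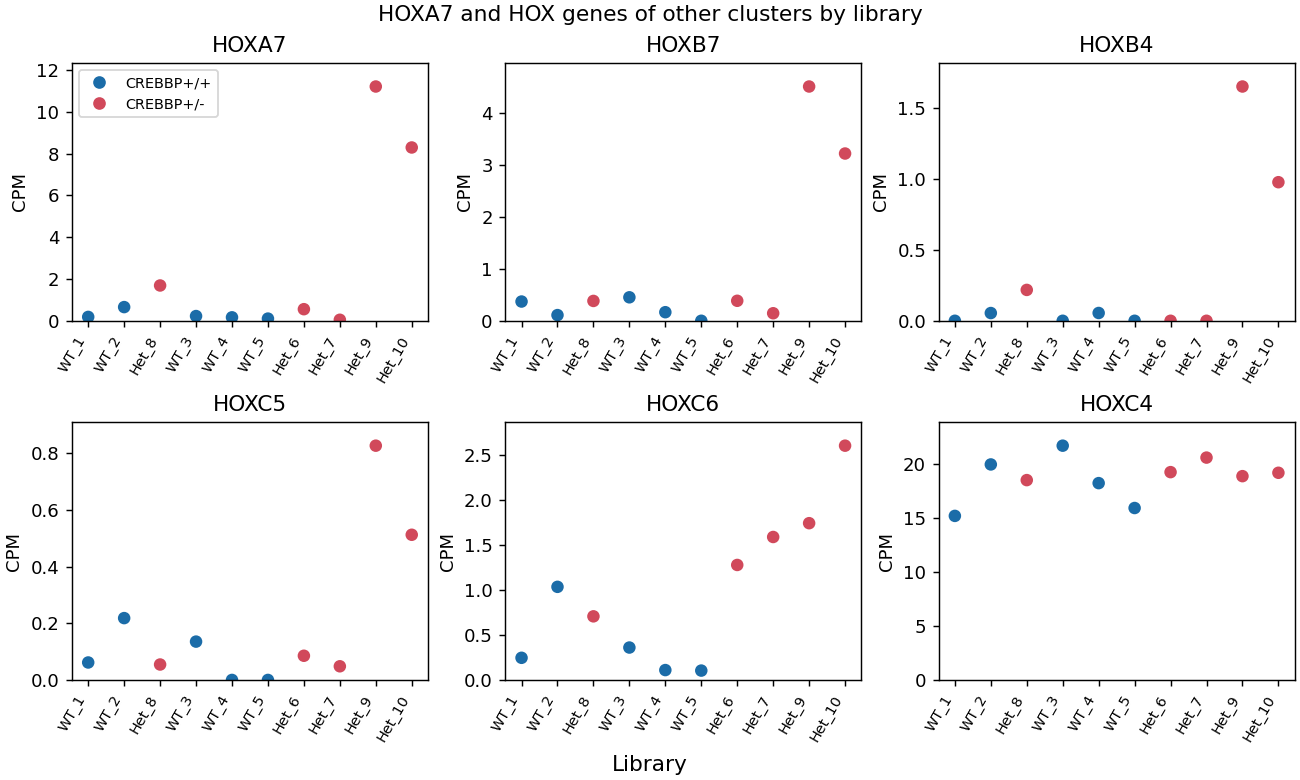
CPM of HOXA7 and of 5 HOX genes of other clusters (1 panel each, y axes from 0) in each library (x axis), coloured by genotype. HOXB7 and HOXB4 are high in Het_9 and Het_10 like HOXA7, and HOXC4 lies between 15.2 and 21.7 CPM in all libraries.

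The genes whose log2 CPM was most like that of HOXA7 over the 10 libraries were MBNL2, a splicing regulator (Pearson r 0.96), NDRG4 (0.96), METTL3, the RNA m6A methyltransferase (0.94), RAB2B (0.94), FBXO7 (0.94), TUBA1A, an alpha tubulin (0.94), STK24 (0.94), RCBTB1 (0.93), MAB21L3 (0.93) and ENAH, an actin regulator (0.93). MBNL2 reached 32.5 CPM in Het_9, 30.6 in Het_10 and 21.0 in Het_8, against 12.3 to 14.2 elsewhere. ENAH had 23.3, 27.9 and 11.4 CPM in the same 3 libraries and 0.316 to 0.709 elsewhere. These are descriptions over libraries that fall into clusters, and without Het_9 and Het_10 the 10 values of r were 0.67 to 0.86. Only genes that passed the filter on low counts were compared, so HOXB7, HOXB4 and HOXC5 could not be among the 10. No HOX gene that passed the filter was among them.

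Among partners and regulators of HOX genes, 0 genes of each list passed the edgeR threshold, as in the whole table. At an unadjusted p under 0.05 there was 1 gene in each list except the activators, which had 0, and DESeq2 called 1, RARA. Of 7 tested TALE partners, 2 had a higher and 5 a lower estimate in CREBBP+/- libraries (median log2 fold change -0.14, against -0.01 over all genes). PBX3, a partner of HOXA proteins, went from 17.7 ± 4.71 to 25.4 ± 3.80 CPM (n = 5 each, log2 fold change 0.52, SE 0.18, edgeR adjusted p = 0.974), and MEIS2 from 21.5 ± 4.15 to 25.7 ± 3.91 CPM (adjusted p = 0.988). MEIS1, a partner of HOXA9 in leukaemia, was below the filter, with 1.63 CPM in Het_8, 1.58 in Het_6 and at most 0.382 elsewhere, with 0 in Het_9 and 0.0466 CPM in Het_10.

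All 30 Polycomb genes were tested, with 8 higher and 22 lower estimates (median -0.08). KDM2B (-0.21, SE 0.08), which brings a Polycomb complex to CpG islands, and CBX7 and PHF1 (-0.39 and -0.27) were among those with the smallest p, and none passed (edgeR adjusted p = 0.977 to 0.988). Of 21 tested activators, 11 were higher and 10 lower (median 0.0021), with KMT2A at 226 ± 25.1 and 247 ± 20.9 CPM (n = 5 each). MLLT10, a subunit of the DOT1L complex that was singled out after its values were seen, had 33.5 and 30.9 CPM in Het_9 and Het_10 and 57.7 to 72.2 in the other 8 libraries. Both libraries lay below the other 8 for 2 of the 21 activators (MLLT10 and BRPF1), near the 8.7% of all genes tested. Of 9 boundary factors, 2 were higher and 7 lower (median -0.08). Of 6 tested retinoid genes, 1 was higher and 5 were lower (median -0.28), and RARA, a retinoic acid receptor, passed in DESeq2 (adjusted p = 0.000108) and not in edgeR (log2 fold change -0.49, SE 0.09, adjusted p = 0.395).

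Markers of other cell types moved with HOXA7 in part. Of 4 neural markers, MAP2 had 14.1 and 15.3 CPM in Het_9 and Het_10 against 0.185 to 3.16 elsewhere, TUBB3 had 93.2 and 118 against 10.3 to 41.5, and GFAP was low throughout, so the sum was 109 and 135 CPM against 11.4 to 42.2. Of 4 NK markers, 1 reached 1 CPM, NCAM1 with 3.95 and 2.61 CPM against 0 to 0.18, and NKG7 was at 0 in every library. Of 6 stromal markers, COL1A1 and DCN reached 1 CPM in Het_9, COL1A2 and COL3A1 were at 0 in every library, and the sum was 2.66 and 2.10 CPM against 0.193 to 0.677. Of 4 endothelial markers PECAM1 alone reached 1 CPM, in Het_9, with CDH5 and KDR at 0 in every library. No T cell, progenitor or erythroid marker reached 1 CPM, and of 7 myeloid markers CD14 alone did. The B cell markers CD79A and CD22 were also higher in Het_9 and Het_10 than in the other 8 libraries. CD79A had 637 and 661 CPM against 371 to 488, and CD22 had 383 and 346 against 152 to 336. The B cell marker MS4A1 had 1321 CPM in Het_9 and 1232 in Het_10, within the range of the other 8 libraries. CD79B, PAX5 and BLK also lay within that range. Of 5 epithelial markers EPCAM alone reached 1 CPM (1.42 to 26.7), with KRT19 at 0 in every library. The part of other cells in the HOXA values was not tested.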

How the data were processed

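Raw counts for each Ensembl gene in each library were used as the authors deposited them. GRCh38, FastQC, STAR, featureCounts and DESeq2 are named, without versions or roles, per the submitters' processing notes. The sources used here do not give the annotation, strand setting or counting options. In the deposited table, values from 10000 up carry 4 significant digits. Of 21174 identifiers, 98.3% were matched to GENCODE v44 symbols on the same build, GRCh38. All columns were mapped to a group.

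Genotypes were compared on the whole table by edgeR 4.0.16 (quasi-likelihood F-test, R 4.3.3, TMM, filterByExpr with minimum count 10 and minimum total 15, 11961 genes tested and 9213 removed, Benjamini-Hochberg adjusted p under 0.05, two-sided). Of the 9 members, 5 passed the filter and 4 did not. CPM used TMM-scaled totals, and log2 CPM for likeness used a prior count of 2. Exon lengths, shared exon bases and coordinates come from GENCODE v44. Homeoboxes, used for distances, were located in coding sequence by the conserved recognition helix. Intervals came from scipy 1.17.1. The edgeR step was tested on simulated data.

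Named genes were all members, the other HOXA genes and listed neighbours, HOX genes of other clusters with at least 1 CPM, the 10 genes most like HOXA7 by Pearson correlation, and, of each regulator list, the 4 tested genes of smallest p. Some genes and sequences that these rules would name are not reported here. The members and lists were chosen with earlier results of these data known. Alternatives were DESeq2 1.42.0, RLE factors, plain totals, no filter, other detection limits, Spearman correlation, another prior count and leaving out each library. Leaving out Het_9 and Het_10 together was added after the data were seen.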

Additional observations from a re-analysis of the deposited data

Results flagged for a closer look

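Within each genotype, a library stood apart where most of the range of log2(CPM + 0.1) lay between it and the next library. Of 20 sets of 5 values examined, 3 held such a library. The limit used is set for about 1 in 20 sets of continuous values. It does not apply to HOXA9, where every other CREBBP+/+ library had 0 counts, so the number of sets is a description. HOXA6 was low in Het_8 (0.708 CPM) among CREBBP+/- libraries, HOXA13 was high in Het_6 (0.854 CPM) among them, and HOXA9 was detected in WT_3 (0.0902 CPM, 2 counts) and in no other CREBBP+/+ library. Their causes were not tested.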

How the results depend on the processing

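The count of genes called between genotypes was 0 in edgeR and 34 with DESeq2, 0 with RLE factors, 0 without a filter, and 0 to 1 leaving out each library, and the cause of the difference between the tools was not tested. The HOXA7 log2 fold change was 3.98 to 4.02 under DESeq2, RLE factors and no filter, and 1.49 without Het_9 and Het_10. The 5 members detected at 1 CPM became 6 at 0.5 CPM or 10 counts, and 4 without WT_3, which alone takes HOXA13 past the limit. The difference in summed CPM of the members, 9.56 CPM higher in CREBBP+/- libraries, was 9.60 with RLE factors, 9.79 with plain totals, 7.61 to 12.1 leaving out each library, and 6.06 without Het_9 and Het_10. The list of genes most like HOXA7 was the least stable of these results: of its 10 genes, 1 stayed with Spearman correlation, 6 with a prior count of 0.5, and 5 to 8 leaving out each library. No paired analysis was possible because the CREBBP+/- columns carry numbers that no labelled clone has. Depth limits the members under 1 CPM, where 3 counts correspond to 0.128 to 0.276 CPM.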

Other observations

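HOXA10, the member with the most counts, was compared with all tested genes in the same way as HOXA7, a step chosen after its values were seen. The most similar genes were DCAF5 (Pearson r 0.98, n = 10 libraries), LSM8 (0.98), MID1 (0.98), STOX1 (0.98) and SMAD4, the shared mediator of TGF-beta signalling (0.98). With Het_9 and Het_10 left out, r for these 5 genes was 0.98 to 0.99. The libraries share clusters, and WT_1, WT_2 and Het_8 are low in all of them.

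The gene most opposite to HOXA7, also looked up after the values were seen, was IKZF1, which encodes Ikaros, a lymphoid transcription factor (Pearson r -0.97, n = 10, and -0.91 without Het_9 and Het_10). Its level was 269 CPM in Het_9, 269.9 in Het_10 and 300.1 in Het_8, against 345 to 407 CPM in the other 7 libraries. Between genotypes its log2 fold change was -0.30 (SE 0.12, edgeR adjusted p = 0.977).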
